A study of Mus musculus with 68 samples.

Results

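The genes described here are 9 genes that mark neurons of the cranial ganglia: Neurog2, Neurod1, Neurod4, Phox2a, Pou4f1, Tubb3, Elavl3, Stmn2 and Ret. They were taken by symbol from a table of 21948 genes measured by RNA sequencing in mouse pharyngeal arches, where 8 of the 9 were found, and Elavl3 was not analysed here. Pharyngeal arches are paired bulges on either side of the future throat. PA1, from which the jaws form, and PA2 behind it were dissected from single embryos at 4 stages in days after conception (E), running from E9.0 over E9.5 and E10.0 to E10.5. The embryos carried the strain label CBA/Ca/J x C57BL/10 and were labelled either wildtype or Hoxa2-/-, a genotype that removes a homeobox gene of PA2. The 68 libraries form 16 groups of 3 to 5, and 33 embryos gave both arches. Each library is a whole arch with all its cell types, so fewer neurons and less of a transcript per neuron cannot be told apart.

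Neurons of the cranial sensory ganglia arise from thickenings of the surface ectoderm called placodes and from the neural crest. The trigeminal ganglion supplies the territory of PA1, and the geniculate ganglion, which forms from an epibranchial placode at the first cleft, supplies that of PA2. Neurog2 is a basic helix-loop-helix (bHLH) transcription factor that starts neuronal differentiation in epibranchial placodes, Neurog1 does so in the trigeminal placode, and Neurod1 and Neurod4 are bHLH factors that act after them. Phox2a is a homeobox factor of visceral sensory neurons, and Pou4f1 is a POU factor of somatic sensory neurons. Tubb3 is a neuronal tubulin, Elavl3 a neuronal RNA-binding protein and Stmn2 a regulator of microtubules in growing axons. Ret is a receptor tyrosine kinase for ligands of the GDNF family, which it binds together with Gfra co-receptors.

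In the mouse assembly GRCm38 (mm10), the GENCODE annotation gives these positions for the 8 measured members. Neurog2 (ENSMUSG00000027967) lies at chr3:127633135-127635631 on the plus strand, Neurod1 (ENSMUSG00000034701) at chr2:79452521-79456751 on the minus strand, and Neurod4 (ENSMUSG00000048015) at chr10:130268152-130280240 on the minus strand. Phox2a (ENSMUSG00000007946) lies at chr7:101818313-101822726 on the plus strand and Ret (ENSMUSG00000030110) at chr6:118151745-118197718 on the minus strand. Pou4f1 (ENSMUSG00000048349) lies at chr14:104461676-104467999 on the minus strand, Tubb3 (ENSMUSG00000062380) at chr8:123411424-123422015 on the plus strand and Stmn2 (ENSMUSG00000027500) at chr3:8509360-8561606 on the plus strand. Neurod1 overlaps Cerkl and Gm26755, Phox2a overlaps Inppl1 on the other strand, and Tubb3 overlaps Gm20388. Whether the counting used strand is not given in the sources used here, so the values of these 3 genes may hold reads of their neighbours. The 3 bHLH genes and Phox2a tended to be high in the same libraries, as shown further on, and the stretches just before their starts are therefore printed, from RefSeq promoters on GRCm38.p6. All are written 5′ to 3′ on the strand of the gene. Any base inside an annotated exon was left out, and capitals mark the E box CANNTG, the letters to which bHLH factors bind.

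Neurog2, chr3:127632886-127633134: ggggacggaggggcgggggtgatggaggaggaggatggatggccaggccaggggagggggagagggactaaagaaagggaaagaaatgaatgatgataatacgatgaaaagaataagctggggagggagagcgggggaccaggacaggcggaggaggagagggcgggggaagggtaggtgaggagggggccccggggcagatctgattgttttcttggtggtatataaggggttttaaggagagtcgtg
Neurod1, chr2:79456786-79456886: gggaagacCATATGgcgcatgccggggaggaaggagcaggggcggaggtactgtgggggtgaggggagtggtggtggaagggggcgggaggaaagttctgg
Neurod4, chr10:130280255-130280504: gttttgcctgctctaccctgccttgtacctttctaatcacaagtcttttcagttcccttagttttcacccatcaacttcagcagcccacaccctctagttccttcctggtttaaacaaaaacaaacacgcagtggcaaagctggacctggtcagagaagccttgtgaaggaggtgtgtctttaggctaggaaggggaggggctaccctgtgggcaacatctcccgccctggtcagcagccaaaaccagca
Phox2a, chr7:101818063-101818312: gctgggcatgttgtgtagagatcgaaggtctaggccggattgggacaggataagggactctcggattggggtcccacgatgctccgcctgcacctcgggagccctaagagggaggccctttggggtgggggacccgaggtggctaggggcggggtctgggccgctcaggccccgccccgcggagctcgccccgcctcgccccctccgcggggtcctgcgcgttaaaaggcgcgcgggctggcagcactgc

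In the full 250 upstream bases, Neurod1 held 1 match to CANNTG, and Neurog2, Neurod4 and Phox2a held 0. The same window held a match in 66% of 27025 RefSeq promoters, read on both strands, and CAGATG or its reverse complement CATCTG in 14.5%. None of the 7 members with a promoter entry held CAGATG or CATCTG there, and Pou4f1 and Elavl3 held 2 matches each to CANNTG. These counts describe the letters of this window alone.

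Libraries held from 8912251 to 20619153 recovered reads, and 3 reads corresponded to 0.14 to 0.328 CPM. CPM is the depth-scaled count of the authors, which sums to 926298 to 1051959 per library. Hoxa2, the targeted gene, was not lower in PA2 labelled Hoxa2-/-, where the group means were 28.7 to 132 CPM against 22.3 to 58.3 in wildtype, so the label is given as deposited throughout. A division of the libraries shows in Ski, at 26.3 to 108 CPM in the 24 wildtype libraries of all stages but E10.0 and at 9.28 to 22.8 CPM elsewhere. At those 3 stages genotype cannot be told apart from whatever divides the libraries. Both labels lie on the same side of this division at E10.0, and the arch comparisons lie within 1 side. Of 4 PA2 libraries rich in red cell or yolk sac transcripts, wildtype E9.0 replicate 2 held 73642 CPM of red cell genes and replicate 3 labelled Hoxa2-/- at E9.0 held 465 CPM of yolk sac genes. Results that lose their call without them are given both ways.

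The comparison of PA2 with PA1 asks in which arch these transcripts were found. Most members were low in whole arches, and where members differed past the threshold they were higher in PA2, with most calls at E9.0 and E9.5. In wildtype, 4 of the 7 members that passed the filter on low values were higher in PA2 at E9.0 (Neurog2, Phox2a, Tubb3 and Ret), where 10.2% of all 18428 genes tested were. At E9.5 there were 5 (Stmn2 in addition), against 12.7% of genes, at E10.0 there were 2 (Tubb3 and Stmn2), against 4.51%, and at E10.5 there were 0, against 0.868%. With the label Hoxa2-/- 3 members were higher at E9.0 (Neurog2, Phox2a and Ret), against 12.1% of genes, and 6 at E9.5 (all but Stmn2), against 6.12%. At E10.0 and E10.5 there were 0 with this label, against 3.13% and 0.982% of genes. The test was limma on log2(CPM + 1), and an adjusted p under 0.05 passed. At an unadjusted p under 0.05 the counts of 0 became 0 in wildtype at E10.5, and 2 and 1 with the label Hoxa2-/- at E10.0 and E10.5. The test of edgeR on recovered reads gave 0, 2 and 0 in these comparisons. The median log2 difference of the 7 members at the 4 stages was 0.96, 0.90, 0.56 and 0.12 in wildtype and 0.75, 1.39, 0.42 and 0.29 with the label Hoxa2-/-, beside -0.02 to 0.01 over all genes. The 8th member, Pou4f1, did not pass the filter. Neurog2, Neurod4, Phox2a and Ret passed it only with PA2 libraries counted, because too few PA1 libraries reached 1 CPM. The number of members found higher in PA2 is therefore partly set by the filter.

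Ret was the member with the largest difference between the arches at E9.0. Wildtype PA2 stood at 19.2, 15.1, 17.7 and 25.4 CPM, and PA1 at 0.679, 0.867, 1.08, 0.483 and 0.589 CPM. PA2 labelled Hoxa2-/- stood at 43.2, 21.5, 23.8 and 13.3 CPM, and PA1 at 0.305, 0.861, 1.19 and 0.568 CPM. Every PA2 library was above every PA1 library of its label, and the PA2 means of 19.3 ± 4.36 (SD, n = 4) and 25.5 ± 12.7 CPM (n = 4) were 26.2-fold and 34.8-fold those of PA1. The log2 difference was 3.53 (SE 0.29, limma adjusted p 3e-14) in wildtype and 3.84 (SE 0.31, 1.8e-14) with the label Hoxa2-/-. By E9.5 the PA2 values had come down to 3.36, 4.71, 13.8 and 1.87 CPM in wildtype and 8.76, 8.09, 5.8, 1.22 and 4.79 CPM with the label Hoxa2-/-. The groups still did not overlap those of PA1, which reached at most 0.97 CPM, and the log2 differences were 1.90 (limma adjusted p 3e-06) and 2.13 (5.7e-08). These 4 calls held under every alternative and with each library left out in turn. At E10.0 and E10.5 Ret lay between 0.111 and 0.87 CPM in wildtype PA2 and between 0.458 and 2.79 with the label Hoxa2-/-, and the arches did not differ past the threshold, with log2 differences of 0.29 to 0.64 and limma adjusted p of 0.21 to 1. In edgeR the call at E10.0 with the label Hoxa2-/- passed (adjusted p 0.047).

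**Figure D1:**
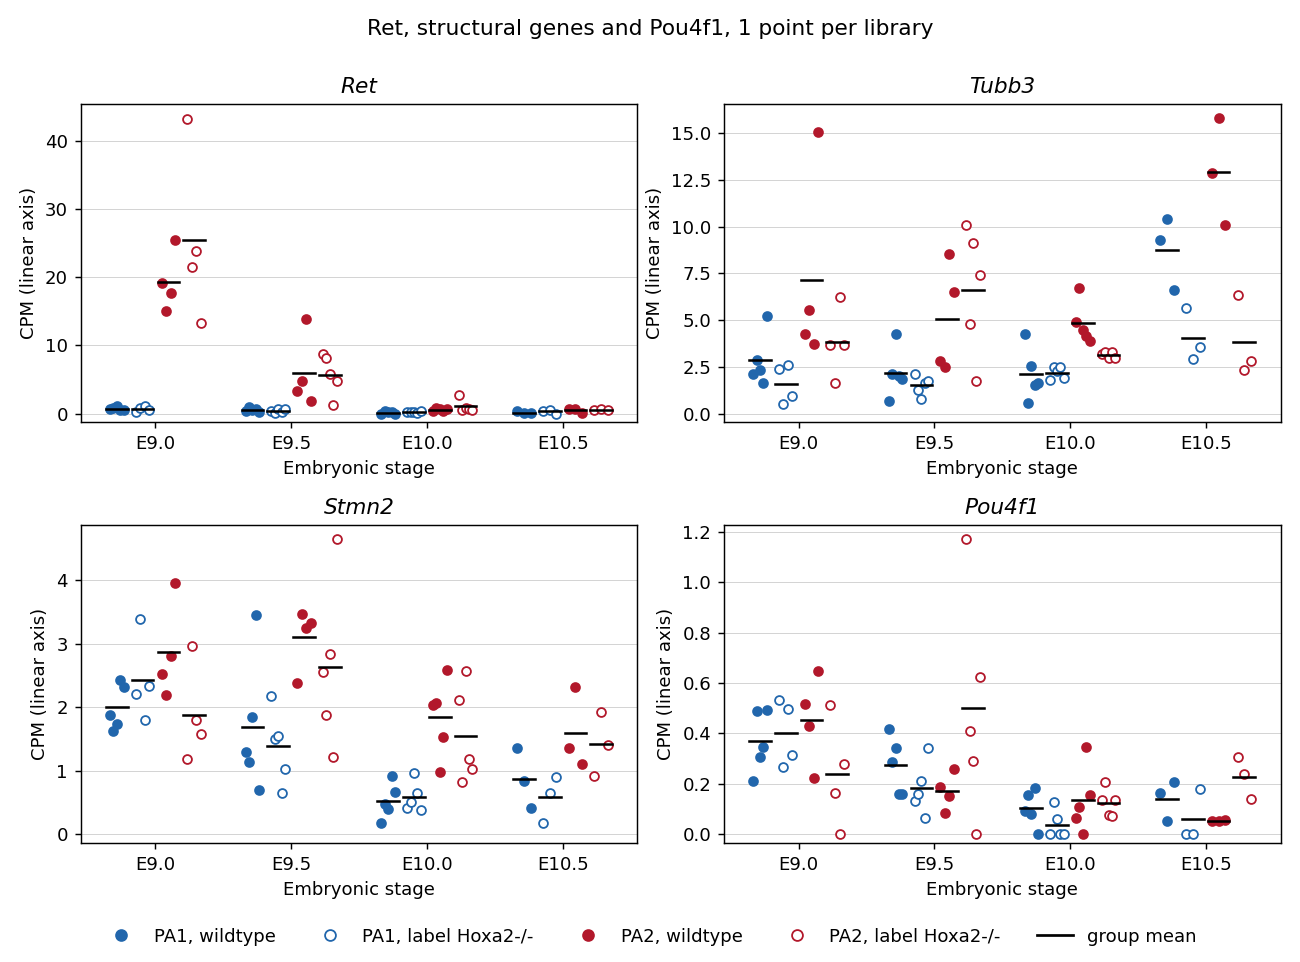
CPM of Ret, Tubb3, Stmn2 and Pou4f1 on linear axes against embryonic stage. Points are libraries, filled for wildtype and open for the label Hoxa2-/-, and bars are group means. Ret in PA2 lies between 13.3 and 43.2 CPM at E9.0 over both labels and at or below 2.79 CPM at E10.0 and E10.5, while the wildtype means of Tubb3 are highest at E10.5.

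Neurog2, the factor that starts neuronal differentiation, had a similar preference at a lower level. In wildtype PA2 it stood at 2.16, 4.44, 1.16 and 10.7 CPM at E9.0 and at 2.05, 0.827, 5.59 and 2.8 CPM at E9.5. The PA1 libraries of these stages reached at most 0.434 and 0.137 CPM, below all PA2 libraries. The log2 differences were 1.89 (SE 0.47, limma adjusted p 0.0024) and 1.69 (SE 0.47, 0.0055), and both held with each library left out and under every alternative. PA2 labelled Hoxa2-/- stood at 1.79, 1.23, 8.61 and 0.554 CPM at E9.0 and at 4.48, 1.06, 9.72, 0 and 5.14 CPM at E9.5. The 4 libraries of E9.0 were all above PA1 (at most 0.382 CPM), but at E9.5 replicate 4 was listed at 0 and overlapped PA1. The log2 differences were 1.46 (limma adjusted p 0.023) and 1.87 (0.0025). Without PA2 replicate 3 of that group, the library rich in yolk sac transcripts, the first was 0.92 (adjusted p 0.19), and without PA1 replicate 4 its adjusted p was 0.053. In a fit of the compared groups alone the adjusted p were 0.091 and 0.058.

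After E9.5 most libraries held little Neurog2, and a few stood apart. In PA2 at E10.0 it was at 0.38, 7.62, 0, 0.833 and 0.313 CPM in wildtype and at 3.81, 1.31, 0, 0.662 and 0.136 CPM with the label Hoxa2-/-. At E10.5 it was at 0.207, 0.0527 and 0 CPM and at 0.381, 1.68 and 0 CPM. All 16 PA1 libraries of these stages were at 0 except 1, replicate 3 labelled Hoxa2-/- at E10.0 (0.18 CPM). The arch difference at E10.0 was 0.97 in wildtype (limma adjusted p 0.21) and 0.83 with the label Hoxa2-/- (0.33). In edgeR the first passed (adjusted p 0.012).

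Phox2a, of the visceral sensory neurons, followed Neurog2 at fewer CPM. At E9.0 it stood at 0.772, 1.23, 0.386 and 3.25 CPM in wildtype PA2 and at 0.597, 0.904, 2.93 and 0.0923 CPM in PA2 labelled Hoxa2-/-. At E9.5 the values were 0.467, 0.496, 1.17 and 0.933 CPM and 1.45, 0.409, 2.32, 0 and 1.18 CPM. PA1 never exceeded 0.299 CPM at any stage, so that only the lowest library of each PA2 group labelled Hoxa2-/- overlapped it. The log2 differences were 1.03 (limma adjusted p 0.0016) and 0.73 (0.022) in wildtype and 0.75 (0.026) and 0.83 (0.013) with the label Hoxa2-/-. The first held with every library left out in turn. Each of the other 3 lost its call without PA2 replicate 3 of its group, at 0.62 (adjusted p 0.097), 0.40 (0.27) and 0.63 (0.087). The call in wildtype at E9.5 was also lost without PA2 replicate 5 (0.68, 0.07) and with a pseudocount of 5 (0.19, 0.075). That at E9.0 with the label Hoxa2-/- was also lost without PA1 replicate 1 (0.69, 0.07) or 2 (0.72, 0.058). In a fit of the compared groups alone the limma adjusted p with this label were 0.2 at E9.0 and 0.1 at E9.5.

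**Figure D2:**
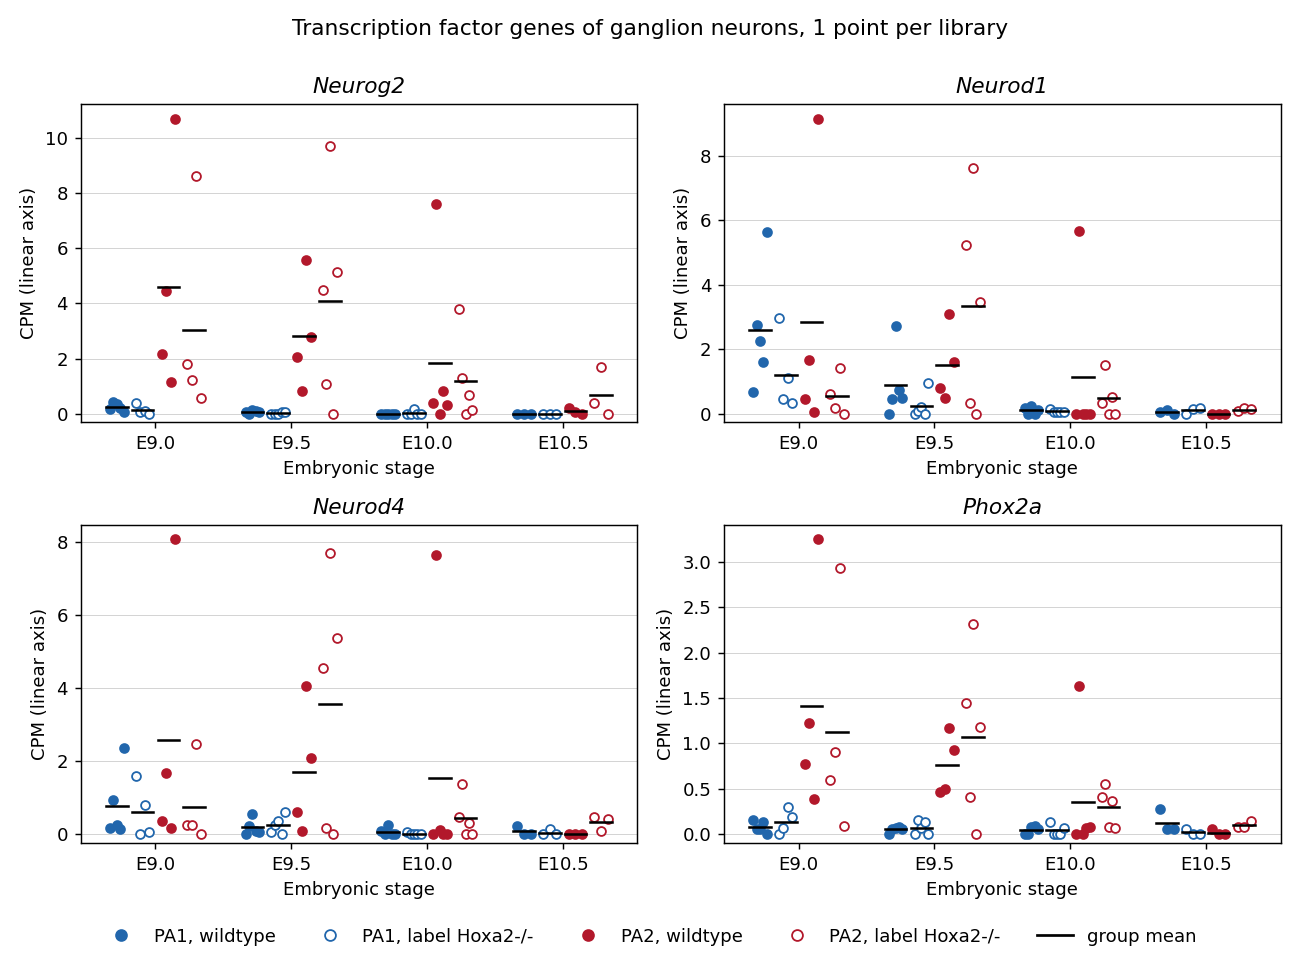
CPM of Neurog2, Neurod1, Neurod4 and Phox2a on linear axes against embryonic stage. Points are libraries, filled for wildtype and open for the label Hoxa2-/-, and bars are group means. The highest PA2 points of wildtype E9.0 (replicate 5) and wildtype E10.0 (replicate 2) belong to the same library in all 4 panels, and Neurod1 is also present in PA1 at E9.0.

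Neurod1 and Neurod4, the factors that act after the neurogenins, were found in both arches at E9.0. Neurod1 stood at 0.679, 2.76, 2.26, 1.59 and 5.65 CPM in wildtype PA1 and at 0.463, 1.66, 0.0552 and 9.15 CPM in PA2. The groups overlapped fully, and the log2 difference was -0.35 (95% interval -1.32 to 0.62, limma adjusted p 0.68). With the label Hoxa2-/- PA1 stood at 2.98, 0.463, 1.1 and 0.315 CPM and PA2 at 0.597, 0.164, 1.42 and 0 CPM, with a log2 difference of -0.46 (interval -1.48 to 0.57). Neurod4 at E9.0 ran from 0.138 to 2.36 CPM in wildtype PA1 and stood at 0.36, 1.66, 0.166 and 8.06 CPM in PA2. In embryos labelled Hoxa2-/- it stood at 1.6, 0, 0.797 and 0.0631 CPM in PA1 and at 0.256, 0.246, 2.46 and 0 CPM in PA2. Its difference was 0.63 in wildtype (interval -0.37 to 1.63) and 0.03 with the label Hoxa2-/- (interval -1.02 to 1.08).

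At E9.5 both Neurod genes passed the threshold in embryos labelled Hoxa2-/-. There Neurod1 in PA2 stood at 5.24, 0.327, 7.62, 0 and 3.47 CPM and Neurod4 at 4.55, 0.163, 7.69, 0 and 5.35 CPM, while PA1 reached at most 0.951 and 0.611 CPM. Replicates 1, 3 and 5 were above all PA1 libraries and replicates 2 and 4 were not. The log2 difference was 1.39 for both, with limma adjusted p of 0.04 and 0.048. Without PA2 replicate 3 it was 1.03 for both (0.18 and 0.2). Both calls were also lost without PA2 replicate 1 (adjusted p 0.13 for both) or 5 (0.11 and 0.16) and without PA1 replicate 1, 2, 3 or 4 (0.057 to 0.1), and that of Neurod4 without PA1 replicate 5 (0.056). In the fit of the compared groups alone the adjusted p were 0.17 and 0.18. In wildtype the differences at E9.5 were 0.45 and 0.97 (limma adjusted p 0.54 and 0.15), and in edgeR that of Neurod4 passed (adjusted p 0.049).

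The neurogenin of the trigeminal placode, Neurog1, which is no member and was singled out after its values were seen, had the opposite preference at E9.0. It stood at 0.784, 1.57, 1.33, 1.45 and 1.91 CPM in wildtype PA1 and at 0.0515, 0.534, 0.0552 and 1.41 CPM in PA2. The log2 difference was -0.74 (limma adjusted p 0.0076) in wildtype and -0.40 (0.18) with the label Hoxa2-/-. At E9.5 the wildtype means were 0.196 CPM in PA2 and 0.376 in PA1. With the label Hoxa2-/- PA2 had the higher mean at E9.5, at 0.679 ± 0.651 CPM (SD, n = 5) against 0.198 ± 0.223 in PA1 (n = 5). Wildtype PA2 E10.0 replicate 2 held 1.09 CPM. At E10.5 all 12 libraries were at 0 for Neurog1.

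Among the structural genes, Tubb3 was present in every library. At E9.0 it stood at 4.27, 5.56, 3.75 and 15.1 CPM in wildtype PA2 and at 2.14, 2.87, 2.36, 1.66 and 5.25 CPM in PA1. The groups overlapped, the log2 difference was 0.96 (SE 0.34, limma adjusted p 0.039), and without PA2 replicate 5 it was 0.57 (0.3). The call was also lost without PA2 replicate 2 or PA1 replicate 1, 2, 3 or 4 (adjusted p 0.055 to 0.093). The calls in wildtype at E9.5 (0.90, adjusted p 0.043) and E10.0 (1.00, 0.048) were as close to the threshold. The first was lost without PA2 replicate 3 (0.64, 0.23) or 5 (0.75, 0.16) and without PA1 replicate 1 (0.69, 0.16), 4 or 5 (0.06 and 0.061). The second was lost without PA1 replicate 2 (0.78, 0.2), 4 or 5 and without any of the 5 libraries of PA2 (adjusted p 0.058 to 0.13). In wildtype the fit of the compared groups alone gave limma adjusted p of 0.08 at E9.0 and 0.096 at E9.5. A pseudocount of 0.25 gave 0.056 at E9.0, and 1 of 5 gave 0.056 at E9.5 and 0.098 at E10.0. At E10.0 no filter gave 0.052 and edgeR 0.092. Without the 4 libraries rich in blood or yolk sac transcripts the limma adjusted p was 0.052 at both E9.0 and E10.0. PA2 labelled Hoxa2-/- at E9.5 stood at 10.1, 4.82, 9.14, 1.72 and 7.43 CPM and PA1 at 2.11, 1.27, 0.775, 1.63 and 1.77 CPM. All PA2 libraries but replicate 4 were above PA1, and the log2 difference of 1.47 (SE 0.32, limma adjusted p 0.001) held with each library left out and under every alternative.

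Stmn2 had no arch call at E9.0, and its call at E10.0 was its firmest. At E10.0 wildtype PA2 stood at 2.03, 2.07, 0.983, 1.53 and 2.58 CPM and PA1 at 0.182, 0.471, 0.4, 0.911 and 0.661 CPM. The groups did not overlap, and the log2 difference of 0.89 (SE 0.21, limma adjusted p 0.0039) held with each library left out and under every alternative that tested it (the filter of 5 CPM left it out). At E9.5 in wildtype the difference was 0.69 (adjusted p 0.02). It was lost without PA2 replicate 3 (0.67, 0.056), PA2 replicate 5 (0.66, 0.056) or PA1 replicate 5 (0.54, 0.075). With the label Hoxa2-/- the differences at E9.5 and E10.0 were 0.57 (0.076) and 0.65 (0.07), and with the embryo as a block their adjusted p were 0.016 and 0.012. The block also gave Tubb3 a call with that label at E9.0, where 0.89 had an adjusted p of 0.063 without the block and 0.0081 with it.

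Pou4f1 was at most 1.17 CPM, or 17 reads, in any library. Its highest value was that of PA2 labelled Hoxa2-/- E9.5 replicate 1, and wildtype groups ran from 0 to 0.649 CPM. PA1 stood at 0.209 to 0.491 CPM and PA2 at 0.221 to 0.649 CPM in wildtype at E9.0, so the arches overlapped. In embryos labelled Hoxa2-/- at E9.5 it had 0.499 ± 0.439 CPM in PA2 (SD, n = 5) and 0.181 ± 0.103 in PA1 (n = 5), and the groups overlapped. No arch test was made for it.

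**Figure D3:**
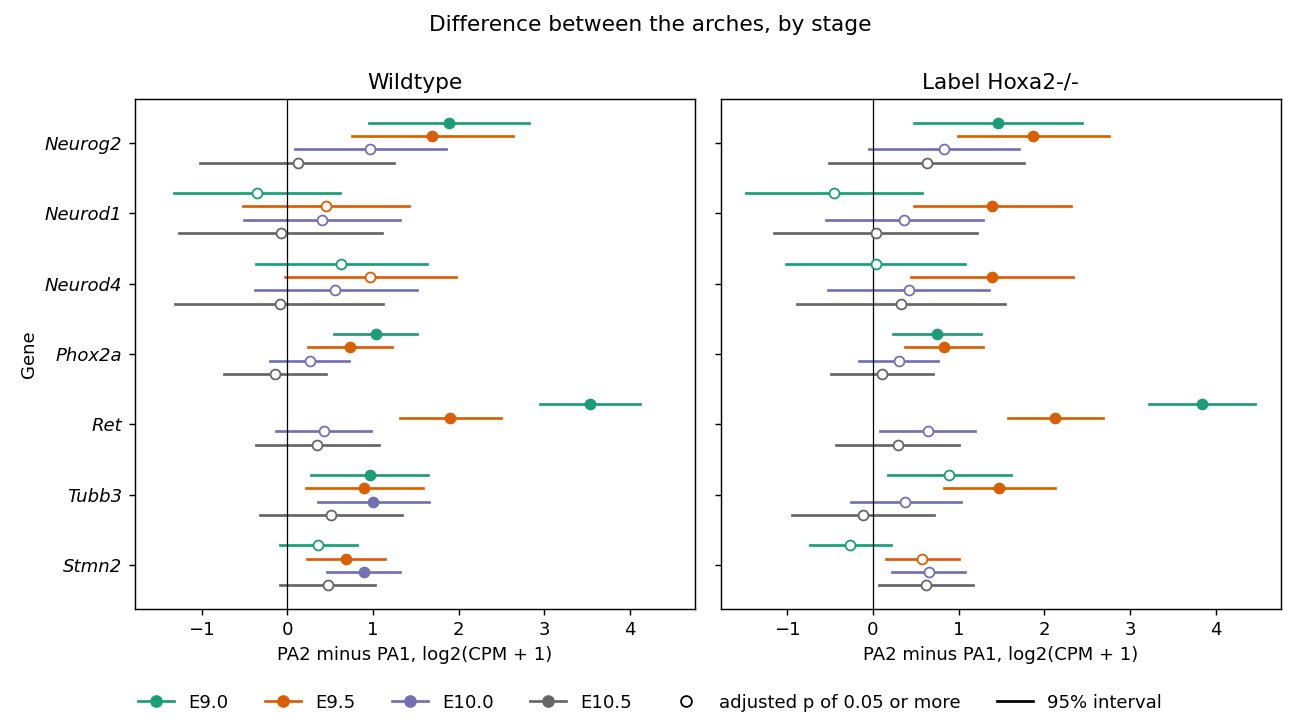
Log2(CPM + 1) difference between PA2 and PA1 for the 7 tested members, in wildtype (left) and with the label Hoxa2-/- (right). Points are estimates of limma for each stage, filled where the adjusted p was under 0.05, and lines are 95% intervals. Ret stands at 3.53 and 3.84 at E9.0, and the intervals of all 7 members at E10.5 cover 0 except that of Stmn2 with the label Hoxa2-/- (0.07 to 1.17).

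The change with stage was of opposite sign among the members. Summed markers of other cells also changed with stage, as shown further on. In wildtype PA2, 4 of the 7 fell (Neurog2, Neurod1, Phox2a and Ret) between E9.0 and E10.5, where 19.4% of all genes tested fell, and 0 rose, against 17.5%. Ret fell by 3.79 on the log2 scale (SE 0.34, limma adjusted p 9.8e-14), Neurog2 by 2.07 (0.0015), Phox2a by 1.11 (0.0012) and Neurod1 by 1.34 (0.049). The last rests on replicate 5 of E9.0, without which it was -0.68 (0.35), and it was also lost without E9.0 replicate 2 (-1.32, 0.079) and without any 1 of the 3 libraries of E10.5. Tubb3 had a difference of 0.94 with an adjusted p of 0.051. It passed with a pseudocount of 5 (0.63, 0.014), with the filter of 5 CPM (0.94, 0.048) and without E9.0 replicate 5 (1.33, 0.0063). Neurod4 fell past the threshold with a pseudocount of 0.25 (-2.50, 0.035), with the block of replicate numbers (-1.44, 0.034) and in edgeR (-8.29, 0.0059). It also passed without E9.0 replicate 1 (-1.60, 0.033) or 4 (-1.68, 0.024). Stmn2 fell past it with a pseudocount of 5 (-0.26, 0.048), without E10.5 replicate 2 (-0.78, 0.036) and without the 4 libraries rich in blood or yolk sac transcripts (-0.67, 0.049). All 7 members had an unadjusted p under 0.05 in limma. Neurod1, Neurod4, Phox2a and Ret passed the filter only with libraries of E9.0 and E9.5 counted, because too few later libraries reached 1 CPM. The numbers of members that fell, here and in PA1, are therefore partly set by the filter. With the label Hoxa2-/- 2 of 7 fell in PA2, against 15.1% of genes. These were Ret (-3.95, limma adjusted p 1.5e-13) and Phox2a (-0.79, 0.024), and Phox2a lost its call without replicate 3 of E9.0 (-0.44, 0.23) and without replicate 1 or 2 of E10.5 (-0.78, 0.069 and -0.78, 0.061).

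In PA1 the stage changes ran both ways. In wildtype 2 of 7 fell, against 21.5% of genes, and 1 rose, against 21%, while with the label Hoxa2-/- 1 fell, against 16.5%, and 1 rose, against 14.8%. Neurod1 fell in wildtype PA1 from 0.679 to 5.65 CPM at E9.0 to 0.0545, 0.105 and 0 CPM at E10.5 (log2 difference -1.62, limma adjusted p 0.01). Tubb3 rose in wildtype PA1 to 9.31, 10.4 and 6.61 CPM, above all libraries of E9.0 (1.39, SE 0.37, limma adjusted p 0.0018). Stmn2 fell there to 1.36, 0.844 and 0.416 CPM (-0.70, 0.018), and its call was lost without E10.5 replicate 3 (-0.51, 0.15). Ret had means of 0.739 CPM at E9.0 and 0.144 at E10.5 in wildtype PA1, and did not pass. Its fall passed in limma with a pseudocount of 0.25 (-1.37, adjusted p 0.015) and with the compared groups alone (-0.60, 0.0044). It also passed with the block of replicate numbers (-0.74, 0.048) and in edgeR (-2.34, 0.021). With the label Hoxa2-/-, Stmn2 fell by 1.13 (0.0005). Tubb3 rose by 1.01 (0.041), a call lost without E10.5 replicate 1 (0.79, 0.2) or 3 (1.06, 0.069) and without E9.0 replicate 2 (0.78, 0.15) or 4 (0.90, 0.099).

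Ret was already lower in PA2 at E9.5 than at E9.0. The log2 difference was -1.81 in wildtype (limma adjusted p 0.00012) and -2.02 with the label Hoxa2-/- (3e-06), and 1 of 7 members fell under each label, against 2.63% and 6.94% of genes. In the fit of the compared groups alone the second had an adjusted p of 0.12. In PA1, 0 of 7 members changed under either label from E9.0 to E9.5, where 6.73% and 2.85% of genes did, and 1 did at an unadjusted p under 0.05 under each label. The test of edgeR gave 0 for both.

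Whether the arch difference itself changed from E9.0 to E10.5 was tested directly, in a comparison added after the values were seen. It was smaller at E10.5 for Ret, by -3.19 in wildtype (SE 0.46, limma adjusted p 3e-06) and -3.56 with the label Hoxa2-/- (SE 0.47, 1e-06). Of the 7 members 1 passed under each label, against 2.21% and 3.26% of genes with a smaller difference. In edgeR on recovered reads the value for wildtype was -2.99 with an adjusted p of 0.23. With the embryo as a block, Stmn2 also passed with the label Hoxa2-/-, with a larger arch difference at E10.5 (0.88, adjusted p 0.033, against 0.12 without the block). For Phox2a it was -1.17 (0.077) and -0.64 (0.34), and for Neurog2 -1.77 (0.2) and -0.83 (0.55). The wildtype value of Phox2a passed in limma with a pseudocount of 0.25 (-2.51, adjusted p 0.045) and without PA2 E9.0 replicate 4 (-1.39, 0.032). It also passed narrowly without the 4 libraries rich in blood or yolk sac transcripts (-1.16, 0.05 after rounding).

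The comparison of the labels asks whether embryos labelled Hoxa2-/- held other levels of these transcripts. In PA1, 0 of 7 members passed at the 4 stages, where 2.08%, 23.6%, 0% and 3.05% of genes did, and 0, 0, 0 and 1 had an unadjusted p under 0.05. In PA2, 0, 0, 0 and 1 member passed, where 14%, 4.48%, 0.0814% and 10.3% of genes did, and the same numbers had an unadjusted p under 0.05. The test of edgeR gave the same counts of calls in both arches. At E10.0, where both labels lie on the same side of the division of libraries, the log2 differences in PA2 ran from -0.47 for Tubb3 (95% interval -1.12 to 0.17) to 0.31 for Ret (-0.24 to 0.87). The interval of Neurog2 was -0.97 to 0.79 and that of Neurod4 -1.16 to 0.73.

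The call in PA2 at E10.5 was Tubb3. Wildtype PA2 stood at 12.9, 15.8 and 10.1 CPM and PA2 labelled Hoxa2-/- at 6.33, 2.32 and 2.8 CPM, and the groups did not overlap. The log2 difference was -1.60 (SE 0.41, limma adjusted p 0.0073), and without replicate 2 labelled Hoxa2-/- it was -1.38 (0.061). In PA1 wildtype stood at 9.31, 10.4 and 6.61 CPM and the label Hoxa2-/- at 5.66, 2.94 and 3.54 CPM, a log2 difference of -0.97 (0.23). Label and division of libraries coincide at this stage, so the 2 cannot be told apart for this value. The difference of this effect between the arches was -0.63 (95% interval -1.81 to 0.54, limma adjusted p 1).

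A direct test of the label effect in PA2 against that in PA1 gave 0 of 7 members at each stage in limma, where 0%, 0.0109%, 0.0163% and 0.038% of genes passed. At an unadjusted p under 0.05 there were also 0, and edgeR gave 0. For Ret at E9.0 the difference was 0.31 (95% interval -0.55 to 1.16), and for Neurog2 it was -0.43 (interval -1.78 to 0.93).

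Within groups, the bHLH genes and Phox2a tended to be high in the same libraries. All 3 bHLH genes were at or above 1 CPM in 8 of 17 PA2 libraries of E9.0 and E9.5, in 2 of 16 of E10.0 and E10.5, and in 0 of 19 and 0 of 16 PA1 libraries. Pearson's r of deviations from the group means over 68 libraries was 0.95 for Neurod1 with Neurod4, 0.88 for Neurog2 with Phox2a, 0.83 for Neurog2 with Neurod4 and 0.77 for Neurod1 with Phox2a. Tubb3 had an r of 0.72 with Neurod1 and 0.70 with Neurod4. Ret had 0.31 to 0.45 with these 4 factors, and Stmn2 0.21 to 0.27. Libraries of 1 embryo, depth and dissection are shared by these points, and many values are at or under 3 reads (39 libraries for Neurog2 and 48 for Phox2a). Without wildtype PA2 E10.0 replicate 2, r was 0.94, 0.85, 0.79 and 0.72 for the first 4 pairs over 67 libraries.

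**Figure D4:**
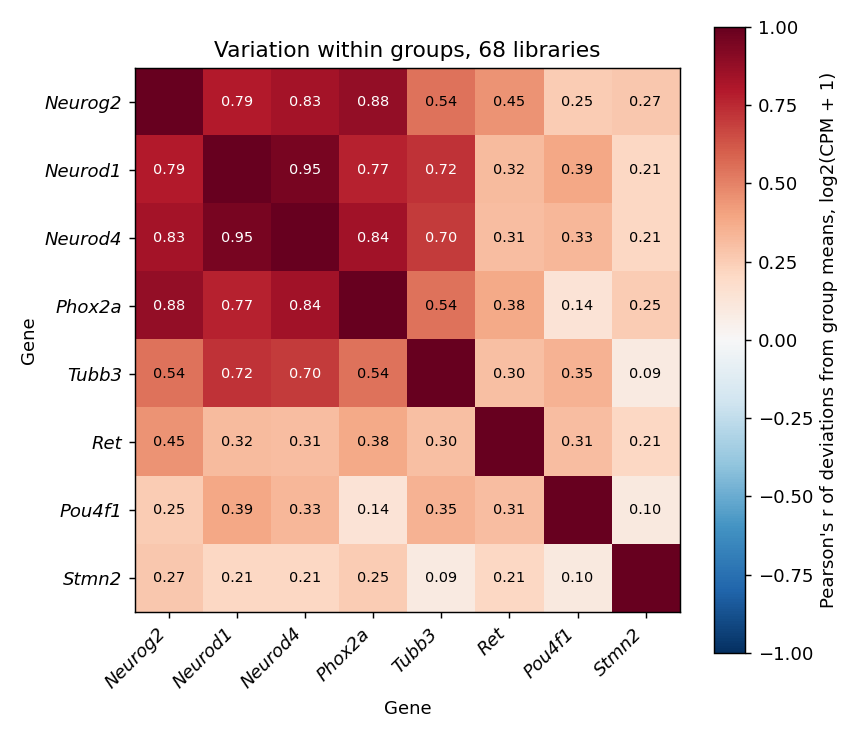
Pearson's r between pairs of members over 68 libraries, from log2(CPM + 1) deviations from each group's mean, on a colour scale from -1 to 1. The block of Neurog2, Neurod1, Neurod4 and Phox2a has values of 0.77 to 0.95, and Stmn2 has values of at most 0.27.

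Single libraries show the same pattern. Wildtype PA2 E10.0 replicate 2 stood at 7.62 CPM for Neurog2, 5.66 for Neurod1, 7.62 for Neurod4 and 1.63 for Phox2a, while the other 4 libraries reached at most 0.833, 0, 0.109 and 0.0783 CPM. Its Ret value was 0.87 CPM (others 0.317 to 0.655) and its Stmn2 value 2.07 CPM (others 0.983 to 2.58). PA2 labelled Hoxa2-/- E9.5 replicate 4 was at 0 for all 3 bHLH genes, Phox2a and Pou4f1, where 3 reads would be within 0.14 to 0.328 CPM. It held Ret at 1.22, Tubb3 at 1.72 and Stmn2 at 1.22 CPM, each the lowest value of its group. Other genes were also lowest there, such as Pax8 (1.29 CPM, others 23.5 to 29.1) and Sox10 (0.359, others 5.56 to 24.5). Its summed hindbrain markers were the highest of the group (24.4 CPM).

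Other genes of the same programme were read from lists of related genes. Of the 8 tested epibranchial and visceral sensory genes, 5 were higher and 1 lower in wildtype PA2 at E9.0, where 10.2% of all genes were higher and 8.53% lower. At E9.5 there were 5 and 0, against 12.7% and 13.7%. In embryos labelled Hoxa2-/- there were 4 and 1 at E9.0, against 12.1% and 12.5% of genes, and 3 and 0 at E9.5, against 6.12% and 3.47%. Gfra1, a co-receptor of Ret, stood at 10.7 ± 2.96 CPM in wildtype PA2 (SD, n = 4) and 3.65 ± 0.565 in PA1 (n = 5) at E9.0, a log2 difference of 1.30 (limma adjusted p 3.6e-06), and 5 of its 8 arch contrasts passed. Gfra2, another co-receptor, stood at 7.96 ± 1.74 and 1.88 ± 0.472 CPM (1.63, limma adjusted p 8.4e-08), and fell in PA2 to E10.5 by 1.74 in wildtype (1e-07) and 2.22 with the label Hoxa2-/- (2.7e-10). Gfra1 in PA2 did not fall past the threshold, at 0.10 (0.76) and -0.16 (0.66). Etv4, an ETS factor of FGF signalling, was higher in PA2 at E9.0 and E9.5 under both labels, by 1.01 to 1.44, and Eya2 was lower at E9.0 by -0.67 (0.016) in wildtype and -1.05 (0.00024) with the label Hoxa2-/-.

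Of the 13 tested proneural and early differentiation genes, 3 were higher and 3 lower in wildtype PA2 at E9.0 (median 0.15), against 10.2% and 8.53% of genes, and 2 and 0 at E9.5, against 12.7% and 13.7%. Btg2, an antiproliferative gene, had 18.9 ± 3.59 CPM in wildtype PA2 against 9.04 ± 1.75 in PA1 at E9.0 (0.99, limma adjusted p 3.2e-06), and Gadd45g at 13.7 ± 3.42 and 5.98 ± 0.891 CPM (limma adjusted p 4.2e-05). Ebf2 was lower in wildtype PA2 at E9.0 (-0.97, 0.0011) and higher with the label Hoxa2-/- from E9.5 on (0.88 to 1.57). Of the 6 tested trigeminal and somatic sensory genes, 2, 3, 3 and 2 were higher in wildtype PA2 at the 4 stages, against 10.2%, 12.7%, 4.51% and 0.868% of genes, and 0 were lower. Isl1, a homeobox factor of sensory and motor neurons and of other cells, passed in all 8 arch contrasts, at 131 ± 30.7 CPM in wildtype PA2 and 29.3 ± 4.36 in PA1 at E9.0.

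The 20 tested structural genes did not share 1 direction. Over the 4 stages of wildtype, in order, 6, 9, 9 and 1 were higher in PA2, against 10.2%, 12.7%, 4.51% and 0.868% of genes, and 3, 1, 0 and 0 were lower, against 8.53%, 13.7%, 1.43% and 0.651%. The neurofilament Nefl had 8.85 ± 5.94 CPM in wildtype PA2 against 2.81 ± 0.591 in PA1 at E9.0 (1.22, limma adjusted p 0.0011). Gap43, of growth cones, was lower in PA2, at 32.6 ± 3.33 and 56.8 ± 2.68 CPM (-0.79, 3.3e-06), and Kif5c, a kinesin, was also lower (-0.60, 0.026). Among 10 tested neurotrophin and GDNF genes, Ngfr, the low-affinity neurotrophin receptor, was higher in PA2 in all 8 arch contrasts by 0.93 to 1.75, and Ntrk2, the BDNF receptor, in 7 of 8. The ligand Ntf3 was lower in PA2 at E9.0 by -1.46 (6.2e-09) in wildtype and -1.42 (5.5e-08) with the label Hoxa2-/-, and higher in wildtype PA2 at E10.0 by 0.52 (0.045).

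Over all 68 libraries and 11362 candidate genes, the gene most like Neurog2, Phox2a and Ret in log2 values was Ctxn3, with Pearson's r of 0.86, 0.85 and 0.94. Next to it came Fgf4 for Neurog2 (0.83) and Phox2a (0.78), and Gfra2 and Ubash3b for Ret (0.92 each). Ctxn3 stood at 18.8 ± 7.25 CPM in wildtype PA2 and 1.17 ± 0.374 in PA1 at E9.0 (log2 difference 3.14, limma adjusted p 3.7e-08), and at 0.108 ± 0.0937 CPM in PA2 at E10.5. The nearest gene was Phactr1 for Neurod1 (0.72), Nefl for Neurod4 (0.70), Rassf4 for Tubb3 (0.74), Cd44 for Stmn2 (0.80) and Cdh19 for Pou4f1 (0.70). Part of each value comes from the arch and stage of the libraries, which these genes share. Over deviations from the group means, Ctxn3 was still nearest to Neurog2 (0.84) and Phox2a (0.74), but for Ret it came after Has2 (0.65) and Cystm1 (0.63), at 0.61. Among the candidates, the gene nearest to Neurod1 in these deviations was Sox10 (0.73), of neural crest and glia, which also correlated with Tubb3 (0.63). The gene nearest to Neurod4 was Tubb3 (0.70), and to Stmn2 Acta2 (0.53).

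Markers of other cells moved with the arch comparison and with stage. The summed level of 5 heart muscle genes ran from 28.9 to 1070 CPM in wildtype PA2 at E9.0 and from 12.2 to 33.1 in PA1, and from 72.3 to 941 and 19.2 to 58 CPM with the label Hoxa2-/-. All 5 were higher in PA2 at E9.0 under both labels. The PA2 library at 28.9 CPM, wildtype replicate 2, held Ret at 15.1 and Neurog2 at 4.44 CPM. The one at 72.3 CPM, replicate 3 labelled Hoxa2-/-, held them at 23.8 and 8.61 CPM. Both are among the libraries rich in red cell or yolk sac transcripts. At E9.5 wildtype PA2 replicate 3 had its group's highest heart sum, Ret and Neurog2 (851, 13.8 and 5.59 CPM). In PA2 labelled Hoxa2-/- at E9.5, replicate 3 had the highest heart sum (615 CPM) and Neurog2 (9.72 CPM). Replicate 4 there had the lowest heart sum (10.8 CPM), the lowest Ret (1.22 CPM) and Neurog2 at 0. Replicate 1 there, at 43.2 CPM of heart genes, held the highest Ret (8.76 CPM). The part of heart tissue was not tested. Placode progenitor genes (9 of 10 in the table) summed to 208 to 275 CPM in wildtype PA2 and 147 to 165 in PA1 at E9.0, and 5 were higher and 1 lower in PA2. The 7 neural crest and glia genes summed to 159 to 211 and 189 to 271 CPM, with 0 of 6 tested higher and 2 lower. The 6 surface epithelium genes summed to 565 to 886 and 633 to 994 CPM, with 1 higher and 1 lower. At E9.5 the neural crest and glia sums lay higher in PA2, at 128 to 227 CPM against 79.8 to 139 in PA1 of wildtype. With the label Hoxa2-/- they ran from 152 to 284 CPM in PA2 and from 93.2 to 168 in PA1 at that stage. In wildtype PA2 the median heart muscle sum was 975, 114, 33.2 and 3.31 CPM from E9.0 to E10.5. Between these stages the medians went from 225 to 82.2 CPM for placode progenitors and from 790 to 361 for surface epithelium. Those of 6 arch mesenchyme and 8 red cell genes rose, from 373 to 648 and from 5030 to 8090 CPM. The part of these cells in the stage changes of the members was not tested.

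Hindbrain tissue was read from 10 markers, of which 4 were in the table and Sox1, Olig2, Nkx6-1, Nkx2-2, Zic1 and Pax7 were not analysed here. The 4 summed to 6.93 to 14.4 CPM in wildtype PA2 and 5.38 to 11 in PA1 at E9.0, and to 18.3 to 28.2 and 6.67 to 15.5 CPM at E9.5. Of the 8 motor neuron markers 3 were in the table, with sums of 10.7 to 24.7 and 3.87 to 7.32 CPM at E9.0, and Isl2 was higher in wildtype PA2. Among the 6 sympathetic and neuroendocrine genes 2 of 5 tested, Ddc and Gata3, were higher in PA2 at E9.0 under both labels. Of the 6 arch mesenchyme genes 4 were lower in wildtype PA2 at E9.0, and of 8 red cell genes 7 were higher there and 0 with the label Hoxa2-/-. The part of these cells in the differences of the members was not tested.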

How the data were processed

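Wildtype and Hoxa2-/- labelled arches were compared by RNA sequencing of polyadenylated RNA, amplified with SMART-seq v4 and made into libraries with Nextera XT, per the labels' protocols. The protocols name no molecular identifiers, so reads may not be independent molecules. The submitters' processing notes name bcl2fastq 2.18, TopHat2 2.1.1, R 3.3.2 and mm10, and the counting program, annotation and strand setting are not given in the sources used here. The authors deposited 1 table with a scaled signal per gene, here called CPM because its column totals run from 926298 to 1051959. The planned tests for CPM were used without change. All values (100%) were whole multiples of 1 read within 0.001 reads, and these recovered reads served edgeR. Genes were matched by Ensembl identifier to GENCODE symbols (21921 of 21948).

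Genes with at least 1 CPM in at least 3 libraries were kept (18428). limma 3.58.1 in R 4.3.3 fitted 1 mean for each of 16 groups to log2(CPM + 1) in all 68 libraries, with a trended prior variance, two-sided, with Benjamini-Hochberg adjustment over all kept genes. This scale understates changes of low genes. Intervals are 95% intervals. On simulated data for the arch contrast of wildtype at E9.5 with 18428 genes, 8 of 189 calls were false. The test recovered 85 of 100 genes changed by a log2 fold of 1 and 96 of 100 changed by 2. The changed genes were drawn from those with a mean of at least 1 CPM over all libraries. Phox2a and Neurod4 had lower means, so this recovery does not describe them. The 30 contrasts were PA2 against PA1, the labels, the difference of the genotype effect between the arches, E10.5 and E9.5 against E9.0, and the change of the arch difference, added later. PA1 and PA2 of the same label, stage and number came from 1 embryo per the series text, and their deviations from group means had a median r of 0.347 over 33 pairs, 30 above 0.1. Where nothing says that libraries of a group came from separate litters, p-values measure the spread between these embryos.

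The members and the gene lists were chosen with earlier results of these data known. From each list, up to 3 genes per direction were named, taken in order of their log2 difference averaged over the 8 arch contrasts. These genes passed at least 2 of the contrasts in that direction and had a group mean of at least 5 CPM. Likeness was Pearson's r over 68 libraries among genes with a group mean of at least 5 CPM, with the first 3 kept per member. Alternatives changed the pseudocount (0.25 or 5), the filter (none, or 5 CPM), the scaling to median-of-ratios (the method of DESeq2 1.42.0), the compared groups alone, replicate blocks, each library left out, edgeR 4.0.16 on recovered reads and, added after seeing the data, leaving out 4 libraries with over 100 CPM of 8 yolk sac genes or over 20000 CPM of 8 red cell genes.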

Additional observations from a re-analysis of the deposited data

Results flagged for a closer look

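Among 95 groups of 4 or 5 libraries of the members, 14 held a library far from the others by Dixon's criterion. That criterion marks about 1 in 20 groups of normally distributed values. The values here are CPM, many of them 0, and 1 read among values of 0 is enough for a mark. The 14 groups therefore cannot be set against that rate.

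Wildtype PA2 E10.0 replicate 2 was the highest of its group in Neurog2 (7.62 CPM, others 0 to 0.833), Neurod1 (5.66, others 0), Neurod4 (7.62, others 0 to 0.109) and Phox2a (1.63, others 0 to 0.0783). Replicate 3 of PA2 labelled Hoxa2-/- at E9.0 was the highest in Neurog2 (8.61 CPM, others 0.554 to 1.79) and Neurod4 (2.46, others 0 to 0.256). In wildtype PA2 at E9.0, replicate 5 was the highest in Tubb3 (15.1 CPM, others 3.75 to 5.56). In PA2 labelled Hoxa2-/- at E10.0, replicate 1 was the highest in Ret (2.79 CPM, others 0.543 to 0.755).

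In PA1 the values so marked were low. Neurod1 stood at 2.73 CPM in wildtype E9.5 replicate 3 (others 0 to 0.721), at 0.951 CPM in replicate 5 labelled Hoxa2-/- at E9.5 (others 0 to 0.211) and at 0.137 CPM in replicate 1 labelled Hoxa2-/- at E10.0 (others 0.06 to 0.0654). At E10.0 with the same label, Neurod4 stood at 0.0686 CPM in replicate 1 and Neurog2 at 0.18 CPM in replicate 3 (others 0 for both). Ret was lowest there in replicate 4, at 0.0654 CPM (others 0.251 to 0.317). Each of these last values rests on a few reads.

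The arch difference of Ret was smaller at E10.5 than at E9.0, by -3.19 in wildtype and -3.56 with the label Hoxa2-/-, both past the threshold in a direct limma test. In edgeR on recovered reads the wildtype value was -2.99 and did not pass (adjusted p 0.23).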

How the results depend on the processing

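No call of a member changed direction under any alternative. Over 1718 values of single members under the alternatives other than leaving out 1 library, 1661 kept their side of the threshold, 32 lost it and 25 gained it. Leaving out 1 library gave 2086 values, of which 2012 kept their side, 59 lost it and 15 gained it. Median-of-ratios scaling moved the median of all genes by at most 0.022 log2 units.

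The numbers of members called that moved by over 1.5 times are given here, with the value of the report in parentheses, and the others stayed within 1.5 times. Pseudocount 0.25 gave 1 for PA2 against PA1 labelled Hoxa2-/- at E10.0 (0 otherwise) and 2 for the change of the arch difference in wildtype (otherwise 1). Pseudocount 5 gave 3 for wildtype at E9.5 (5), 1 for wildtype at E10.0 (2) and 1 for E10.5 against E9.0 in PA1 labelled Hoxa2-/- (2). A filter of 5 CPM, which tests 5 members, gave 3, 1 and 1 for these, and 1 for E10.5 against E9.0 in PA2 labelled Hoxa2-/- (2). No filter gave 1 for wildtype at E10.0 (2). With the compared groups alone the arch contrast gave 3 in wildtype at E9.5 (5), and 1, 2 and 1 with the label Hoxa2-/- at E9.0, E9.5 and E10.0 (3, 6 and 0). It gave 1 for the labels in PA1 at E10.5 (0), 1 for E10.5 against E9.0 (2) and 0 for E9.5 against E9.0 (1) in PA2 labelled Hoxa2-/-. The test of edgeR gave 2 for the arches labelled Hoxa2-/- at E10.0 (0) and 0 for the change of the arch difference in wildtype (1). Without the 4 libraries rich in blood or yolk sac transcripts there were 1 for the arches in wildtype at E10.0 (2), 1 with the label Hoxa2-/- at E9.0 (3), 1 for E10.5 against E9.0 in PA2 labelled Hoxa2-/- (2) and 2 for the change of the arch difference in wildtype (1). The cause of these moves was not tested.

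With the embryo as a replicate block, the arches labelled Hoxa2-/- gave 4, 7 and 1 members at E9.0, E9.5 and E10.0 (3, 6 and 0), and the change of the arch difference with that label gave 2 (1), where Stmn2 was added with a larger difference at E10.5. The block of replicate numbers across labels and stages, which mark no shared embryo, gave 4 and 5 members for E10.5 against E9.0 in wildtype PA1 and PA2 (3 and 4) and moved no count of the other label and stage contrasts.

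Leaving out 1 library in turn gave 3 to 4, 2 to 5 and 1 to 2 members for the arches in wildtype at E9.0, E9.5 and E10.0, and 1 to 4, 3 to 7 and 0 to 1 with the label Hoxa2-/-. It gave 0 to 1 for the labels in PA2 at E10.5. For E10.5 against E9.0 it gave 2 to 3 and 3 to 5 in wildtype PA1 and PA2, and 1 to 2 in both arches labelled Hoxa2-/-. It gave 1 to 3 for E9.5 against E9.0 in PA2 labelled Hoxa2-/- and 1 to 2 for the change of the arch difference in wildtype. Depth limits the low members, since 3 reads correspond to 0.14 to 0.328 CPM.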
